A study of Mus musculus with 8 samples.

Results

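The genes described here are the E protein genes Tcf3 (encoding E2A), Tcf12 (encoding HEB) and Tcf4, and the Id inhibitor genes Id1, Id2 and Id3. They were chosen by symbol, 6 of the 24505 genes in the deposited count table. The RNA was taken from the mouse pro-T line Scid.adh.2c2, sorted 2 days after infection with a GFP-marked retrovirus. The 4 groups of 2 libraries carried a mock virus, wild-type Runx1 (labelled Runx1 WT), a construct labelled Runx1 DN, or Satb1. All groups share the cell line, the infection and the sort, and the line is a single cultured line that stands in for thymic pro-T cells. DN is not explained in the labels (dominant negative is its usual meaning for Runx constructs), and neither is the stretch of Runx1 it holds. Whether replicates are separate cultures is also not given, so each p-value reflects only the variation between these libraries, which may be technical.

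E proteins are basic helix-loop-helix transcription factors that bind the E-box, CANNTG, as dimers. Id proteins have the helix-loop-helix but lack the basic region, so an E protein paired with an Id protein cannot bind DNA. In early thymocytes E2A and HEB are known to promote recombinase, pre-TCR and Notch pathway genes and to hold cells at the pre-TCR checkpoint. Id3 is known as a gene induced by T cell receptor signals, and Id2 as a gene needed by natural killer (NK) and innate lymphoid cells.

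Library totals ran from 23624498 to 33093330 counts. Runx1 read 7980 ± 470 CPM (counts scaled to depth by library total and TMM factor, mean ± SD, n = 2) with Runx1 WT and 22700 ± 2100 CPM with Runx1 DN, against 134 ± 5.9 CPM in mock, while Satb1 read 3780 ± 280 CPM in its group against 381 ± 5.3 CPM in mock. All 11 pro-T marker genes listed were tested, with 7 higher and 3 lower with Runx1 WT, 1 higher and 9 lower with Runx1 DN, and 5 higher and 0 lower with Satb1 (by an adjusted p under 0.05 in edgeR, as for all calls). Of all genes tested, 70.7%, 34.5% and 6.36% were called in these comparisons. Their summed level was 4070 to 4100 CPM in mock, 5520 to 5610 CPM with Runx1 WT, 1250 to 1290 CPM with Runx1 DN and 4890 to 5010 CPM with Satb1. In 13 glycolysis and hypoxia genes mock replicate 2 stood above replicate 1 by a median of 1.10 and Satb1 replicate 2 above replicate 1 by 1.46 on the log2 scale. The same difference was -0.08 within Runx1 WT and 0.07 within Runx1 DN. In bulk RNA, fewer cells expressing a gene and less RNA per cell cannot be told apart.

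Tcf3, Tcf12 and Id2 were the abundant members. Per kilobase of transcript, the scale on which levels of different genes can be compared, Tcf3 stood at 92.6 ± 2.4 CPM per kilobase in mock, Tcf12 at 70.5 ± 0.63 and Id2 at 48.5 ± 6.3. These levels were above those of 92.7%, 90.2% and 85.1% of the 12699 genes tested. Id3 (2.69 ± 0.48 CPM per kilobase) and Id1 (0.911 ± 0.023) were low in mock, above 27.8% and 20% of the genes tested. Tcf4, known for its part in plasmacytoid dendritic cells, had 0 and 1 counts in mock, 1 and 3 with Runx1 WT, 0 and 4 with Runx1 DN, and 0 and 0 with Satb1. It failed the filter on low counts, and no fold is given, because 7 of its 8 values were at or under the 3 counts (0.0953 to 0.125 CPM, depending on the library) that a count of 0 allows. The 7 plasmacytoid dendritic markers listed summed to 198 to 205 CPM in mock, 839 to 874 with Runx1 WT, 163 to 164 with Runx1 DN and 113 to 130 with Satb1. Of the 4 tested, 4 rose with Runx1 WT (Bst2, Ccr9, Spib and Cox6a2), 1 rose and 2 fell with Runx1 DN, and 1 rose and 1 fell with Satb1. Over all genes tested, 38.9% were called higher with Runx1 WT. With Runx1 DN 17.5% were called higher and 16.9% lower, and with Satb1 3.28% and 3.09%. Siglech and Irf8, defining genes of these cells, had no count in mock, Runx1 WT or Satb1 and at most 0.144 CPM with Runx1 DN. Counts are per gene, so the alternative transcripts of Tcf3 and Tcf12 were not separated. No member overlapped another row of the table, and none shared its counts with another row.

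**Figure D1:**
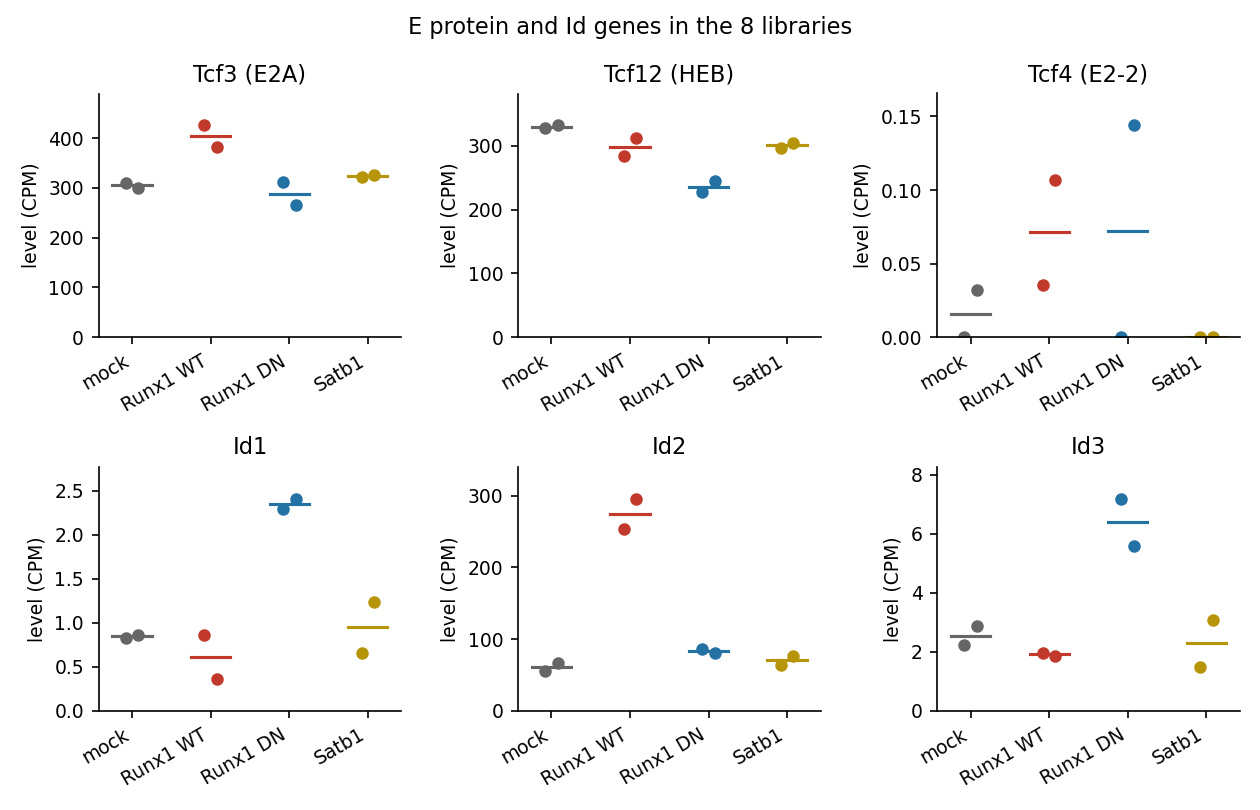
Level of each E protein and Id gene (CPM on the TMM scale, vertical axes from 0 with a scale of their own) in the 4 groups. Points are the 2 libraries of a group and lines their means. Id2 is highest in the Runx1 WT libraries (254 and 296 CPM), Id1 and Id3 in the Runx1 DN libraries, and Tcf12 is lowest in the Runx1 DN libraries.

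With Runx1 WT, Id2 RNA rose 4.47-fold and Tcf3 RNA rose 1.33-fold over mock. Id1, Id3 and Tcf12 did not pass the test. With Runx1 DN, Id1, Id2 and Id3 RNA rose and Tcf12 RNA fell, while Tcf3 did not pass. With Satb1, 0 of the 5 members tested passed.

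Of the 5 members tested, 2 were called higher and 0 lower with Runx1 WT, where 70.7% of all genes tested were called, 38.9% higher and 31.8% lower, so a count of this size is near the background. With Runx1 DN, 3 were called higher and 1 lower against a background of 34.5% called, 17.5% higher and 16.9% lower. With Satb1, 0 were called in either direction against a background of 6.36% called, 3.28% higher and 3.09% lower. There 0 members had an unadjusted p under 0.05, and DESeq2 and limma-voom also called 0. Between Runx1 WT and Runx1 DN all 5 members tested were called, 3 higher and 2 lower in Runx1 WT, where 68.3% of all genes were called (34.8% higher and 33.5% lower). With Runx1 WT over Satb1, 2 were higher and 0 lower (background 70.9%, of which 38.7% higher and 32.2% lower), and with Runx1 DN over Satb1, 2 were higher and 1 lower (background 38%, of which 19.4% higher and 18.6% lower). The comparisons with mock share the mock libraries, and those with Satb1 share the Satb1 libraries.

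Id2 lies on the minus strand of chromosome 12, 25778664 to 25780957 (mm9, transcript NM_010496), and had 1476 and 2104 counts in mock, 7134 and 8287 with Runx1 WT, 2056 and 2245 with Runx1 DN, and 1865 and 2418 with Satb1. Scaled to depth, these were 55.8 and 67.2 CPM in mock, 254 and 296 with Runx1 WT, 85.5 and 80.8 with Runx1 DN, and 64.1 and 76.8 with Satb1. Both Runx1 WT libraries stood far above all others, both Runx1 DN libraries stood above both mock libraries, and the Satb1 and mock libraries overlapped. The log2 fold change over mock was 2.16 ± 0.12 (SE) with Runx1 WT (adjusted p = 1.76e-07, by edgeR's quasi-likelihood F test, adjusted after Benjamini and Hochberg over all genes tested). It ranged from 2.03 to 2.30 over 19 other settings, with an adjusted p of at most 3.01e-06, and 98.0% of the genes tested had a lower level per kilobase in Runx1 WT.

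With Runx1 DN the Id2 change was smaller, 0.43 ± 0.12 on the log2 scale (adjusted p = 0.0167). The call was lost without mock replicate 1 (0.30, adjusted p = 0.126) and without Runx1 DN replicate 1 (0.40, adjusted p = 0.0871), and its adjusted p over 19 settings was 0.00257 to 0.126. With Satb1 the difference was 0.20 ± 0.12 (adjusted p = 0.429, 95% interval -0.07 to 0.46). In order of level, Id2 was highest with Runx1 WT, then Runx1 DN, Satb1 and mock. Runx1 WT exceeded Runx1 DN by 1.73 ± 0.12 (adjusted p = 6.95e-07), while the difference between Runx1 DN and Satb1, whose libraries did not overlap, missed the threshold (0.24 ± 0.12, adjusted p = 0.134). It was called in 2 of 19 settings, with library size alone (0.32, adjusted p = 0.0402) and with the replicate block (0.25, adjusted p = 0.04).

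Id2 replicate 2 stood above replicate 1 by 0.27 in mock, 0.26 in Satb1 and 0.22 in Runx1 WT, and below it by 0.08 in Runx1 DN (log2; a difference of -0.08). Without the mock and Satb1 libraries numbered 2, which were high in hypoxia genes, the Id2 change was 2.30 with Runx1 WT (adjusted p = 2.62e-06) and 0.57 with Runx1 DN (adjusted p = 0.011). NK and innate lymphoid markers rose with Runx1 WT, as Id2 did, while their sum was below that of mock with Runx1 DN and with Satb1. Their summed level over 6 genes was 107 to 120 CPM in mock, 388 to 420 CPM with Runx1 WT and 47.7 to 51.8 CPM with Satb1. The sum is nearly all Gzma, a granzyme gene (106 and 119 CPM in mock, 386 and 416 with Runx1 WT, 47.1 and 51.2 with Satb1, 8.07 and 9.72 with Runx1 DN). With Runx1 WT all 4 of these markers that were tested rose, where 38.9% of all genes were called higher. Among them was the NK receptor gene Ncr1 (0.151 and 0.0638 CPM in mock, 0.606 and 1.43 with Runx1 WT). Ncr1 and Klrb1c had at most 4 counts in any library outside Runx1 WT, and Prf1 at most 13. Ncr1, Klrb1c and Prf1 passed the filter on low counts only through Runx1 WT, so their rise was partly fixed by the filter. Gzma was the only tested marker of this list without that limit. With Satb1 and with Runx1 DN the single call was the lower Gzma, where 3.09% and 16.9% of all genes were called lower. Klrd1, another NK receptor gene, had no count in any library. The part of these markers in the Id2 result was not tested. With Runx1 DN, where Id2 was also called higher, the same sum was 8.32 to 9.97 CPM.

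The 250 bases before the annotated start of Id2 and of Id3 are shown with E-boxes (CANNTG) in capitals, as Id2 and Id3 moved in opposite directions between Runx1 WT and Runx1 DN. The windows are RefSeq's (GRCm38.p6) and were found for 4 of the 6 members, not including Id1 and Tcf4. The Id2 window is chr12:25096093-25096342 on the minus strand and the Id3 window chr4:136143572-136143821 on the plus strand.
Id2: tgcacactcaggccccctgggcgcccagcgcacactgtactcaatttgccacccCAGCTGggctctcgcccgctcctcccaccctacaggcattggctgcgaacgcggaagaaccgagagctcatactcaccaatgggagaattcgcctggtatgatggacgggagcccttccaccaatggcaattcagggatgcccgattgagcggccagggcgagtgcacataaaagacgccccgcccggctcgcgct
Id3: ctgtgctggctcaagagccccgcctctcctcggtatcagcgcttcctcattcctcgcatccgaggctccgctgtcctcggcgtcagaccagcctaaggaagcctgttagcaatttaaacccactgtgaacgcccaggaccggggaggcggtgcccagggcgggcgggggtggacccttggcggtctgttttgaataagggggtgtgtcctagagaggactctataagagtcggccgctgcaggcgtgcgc
The Id2 window holds a single E-box, CAGCTG, at positions -196 to -191 relative to the start, and the Id3 window holds none. CAGCTG was present in 13.0% and any CANNTG in 66.2% of 32851 promoter windows of the same length, searched on both strands, and every CAGCTG is also a CANNTG. The Runx core (TGTGGT or TGCGGT, either strand) was in neither of these windows and in 18.6% of all windows. A match is a run of letters, not a shown binding site, and the lack of a match covers only these bases.

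Id3 (NM_008321, chromosome 4, 135699737 to 135701307, plus strand, mm9) was counted 59 and 90 times in mock, 55 and 52 with Runx1 WT, 173 and 155 with Runx1 DN, and 43 and 97 with Satb1. Scaled to depth, Id3 read 2.23 and 2.87 in mock, 1.96 and 1.86 with Runx1 WT, 7.19 and 5.58 with Runx1 DN, and 1.48 and 3.08 with Satb1. Both Runx1 DN libraries stood above all 6 others, and the Satb1 libraries spanned the mock libraries. The change with Runx1 DN was 1.31 ± 0.29 on the log2 scale, a 2.48-fold rise (adjusted p = 0.0067, range over 19 settings 0.000981 to 0.0532). The call was lost only without Runx1 DN replicate 1 (1.13, adjusted p = 0.0532). With Runx1 WT the log2 difference from mock was -0.42 ± 0.33 (adjusted p = 0.269, 95% interval -1.16 to 0.31). It stood at -1.21 (adjusted p = 0.0162) with quantile normalization in limma-voom, the only setting of 19 that called it. It was -0.23 without mock replicate 2, and -0.59 without mock replicate 1. Satb1 gave -0.16 ± 0.32 (adjusted p = 0.859).

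Id1 (NM_010495, chromosome 2, 152561987 to 152563146, mm9, plus strand) was the lowest of the Id genes, with 22 and 27 counts in mock, 24 and 10 with Runx1 WT, 55 and 67 with Runx1 DN, and 19 and 39 with Satb1. These were 0.832 and 0.862 CPM in mock, 0.856 and 0.357 with Runx1 WT, 2.29 and 2.41 with Runx1 DN, and 0.653 and 1.24 with Satb1. As for Id3, only the Runx1 DN libraries stood clear of the other 6. The change with Runx1 DN was 1.47 ± 0.37 on the log2 scale, a 2.76-fold rise (adjusted p = 0.0127). The value held between 1.43 and 1.51 when each library was left out in turn, but the call was lost, by adjusted p, without mock replicate 1 (0.0577), mock replicate 2 (0.0597) or Runx1 DN replicate 2 (0.0602), and with quantile normalization (0.0594). With Runx1 WT the difference of -0.48 ± 0.45 (adjusted p = 0.358, 95% interval -1.48 to 0.52) rested on Runx1 WT replicate 2, without which it was 0.02 (-1.24 without Runx1 WT replicate 1). Quantile normalization in limma-voom called it at -1.60 (adjusted p = 0.0174).

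The direct comparison of Runx1 WT with Runx1 DN split the Id genes. Id2 was 3.31-fold higher in Runx1 WT, whereas Id3 was lower by a log2 difference of -1.74 ± 0.31 (adjusted p = 0.000578) and Id1 by -1.95 ± 0.40 (adjusted p = 0.00142). All 3 calls held in each of 19 other settings, in a comparison where 68.3% of all genes tested were called. Against Satb1, Runx1 DN was higher in Id3 (1.47 ± 0.30, adjusted p = 0.00338) and in Id1 (1.30 ± 0.36, adjusted p = 0.018). With quantile normalization in limma-voom the Id1 call was lost (0.94, adjusted p = 0.0654). That Id1 call was lost without either Runx1 DN library (0.0628 and 0.078) or Satb1 replicate 1 (0.92, adjusted p = 0.116). Runx1 WT and Satb1 differed by -0.26 ± 0.33 in Id3 and by -0.65 ± 0.44 in Id1, not past the threshold. Both were called with quantile normalization in limma-voom, at -0.98 for Id3 (adjusted p = 0.0428) and -1.65 for Id1 (adjusted p = 0.0142). These were called at -0.69 without Satb1 replicate 1 for Id3 (adjusted p = 0.0486) and at -1.41 without Runx1 WT replicate 1 for Id1 (adjusted p = 0.0437). In Runx1 WT over Runx1 DN, Id1 stood at -1.45 without Runx1 WT replicate 2 and at -2.70 without Runx1 WT replicate 1. Markers of myeloid cells were low but higher with Runx1 DN than in mock, 17.7 to 19.7 against 7.26 to 9.77 CPM summed over 8 genes. The sum with Satb1, 12.5 to 19.8 CPM, overlapped that with Runx1 DN. All 3 of these markers that were tested rose with Runx1 DN, where 17.5% of all genes were called higher. The granulocyte genes Mpo and Elane had at most 5 counts in a Runx1 DN library. The sum is mostly the integrin gene Itgam (14.4 and 16.1 CPM with Runx1 DN), and it was 68.7 to 73.1 CPM with Runx1 WT, of which Itgam was 65.1 and 70.4. The macrophage gene Adgre1 was called higher with Runx1 DN (0.0756 and 0.223 CPM in mock, 2.12 and 2.09 with Runx1 DN, adjusted p = 8.7e-05) and not with Runx1 WT (0.214 and 0.214 CPM, adjusted p = 0.517). Adgre1 passed the filter on low counts only through the Runx1 DN libraries (51 and 58 counts), so its rise was partly fixed by the filter. Itgam and Csf1r were instead higher with Runx1 WT than with Runx1 DN (log2 differences of 2.15 and 1.94). Csf1r, with no count in mock, read 2.89 and 2.14 CPM with Runx1 WT and 0.457 and 0.828 with Runx1 DN. Csf1r passed the filter on low counts only through the Runx1 groups, so its rise over mock was also partly fixed by the filter. The part of these markers in the Id1 and Id3 results was not tested.

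Tcf3 (NM_001164150, chromosome 10, 79871910 to 79896398, minus strand, mm9) read 310 and 299 CPM in mock, 426 and 383 with Runx1 WT, 311 and 265 with Runx1 DN, and 323 and 327 with Satb1. Both Runx1 WT libraries were above the other 6, and the Runx1 DN libraries spanned mock. With Runx1 WT it rose by 0.41 ± 0.09 on the log2 scale (adjusted p = 0.00182), a call made in all 19 other settings (0.33 to 0.60, adjusted p at most 0.0306). Runx1 DN gave -0.08 ± 0.09 (adjusted p = 0.509, 95% interval -0.28 to 0.11) and Satb1 0.09 ± 0.09 (adjusted p = 0.652, -0.10 to 0.29). In order, Runx1 WT (404 ± 30 CPM) was followed by Satb1 (325 ± 2.6), mock (305 ± 7.8) and Runx1 DN (288 ± 32), and the neighbours among these last 3 did not pass the test, although the Satb1 and mock libraries did not overlap. Runx1 WT exceeded Satb1 by 0.32 ± 0.09 (adjusted p = 0.00802), a call lost without Runx1 WT replicate 1 (0.24, adjusted p = 0.0553) and without the mock and Satb1 libraries numbered 2 (adjusted p = 0.058).

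Tcf12 (NM_011544, chromosome 9, 71692059 to 71959626, minus strand, mm9) read 328 and 332 CPM in mock, 284 and 312 with Runx1 WT, 228 and 244 with Runx1 DN, and 297 and 305 with Satb1. Both Runx1 DN libraries were below the other 6, and both mock libraries were above all others. With Runx1 DN it fell by 0.49 ± 0.07 on the log2 scale, to 0.714 of the mock level (adjusted p = 0.000558), called in all 19 other settings (-0.54 to -0.36). With Runx1 WT the log2 difference from mock was -0.15 ± 0.07 (adjusted p = 0.0867). The call depended on the setting: 6 of 19 settings called it, among them RLE size factors (-0.20, adjusted p = 0.0295), the replicate block (-0.15, adjusted p = 0.0467) and leaving out Runx1 WT replicate 2 (-0.22, adjusted p = 0.0301). In the authors' deposited table Tcf12 stood at -0.25 with an adjusted p of 0.0448 in that comparison. Satb1 gave -0.13 ± 0.07 (adjusted p = 0.364). Tcf12 was higher with Runx1 WT than with Runx1 DN by 0.34 ± 0.07 (adjusted p = 0.00178), and Runx1 WT and Satb1 differed by -0.01 ± 0.07 (95% interval -0.17 to 0.14).

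**Figure D2:**
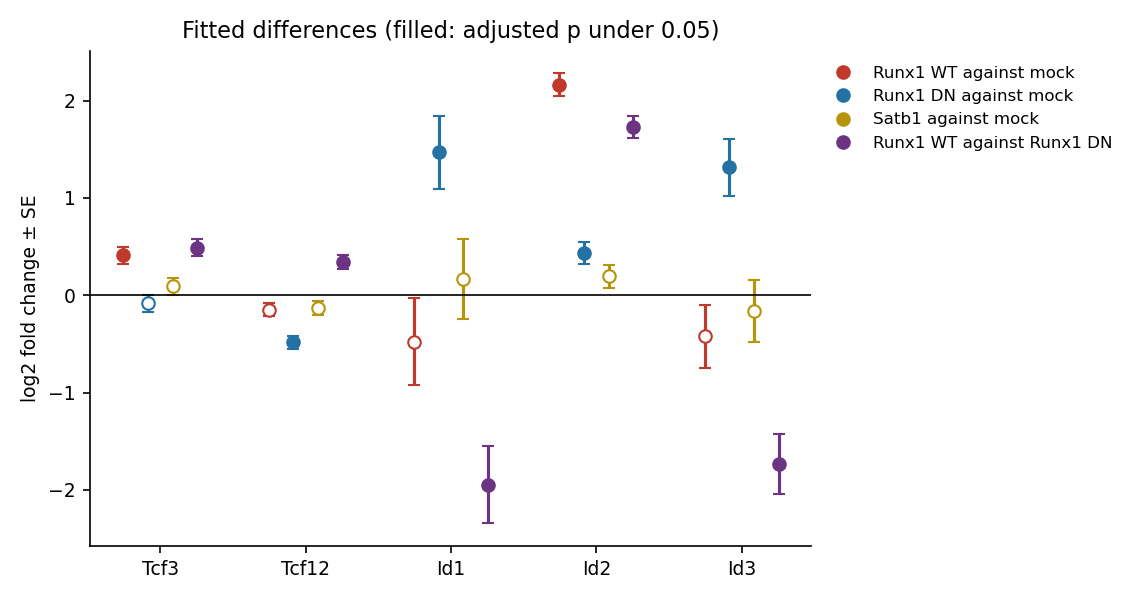
Log2 fold change (vertical axis) of the 5 members that passed the filter, in 4 comparisons, with bars of 1 SE. Filled points have an adjusted p under 0.05 in edgeR. Id2 stands at 2.16 with Runx1 WT over mock, Id1 and Id3 stand above 1 with Runx1 DN over mock and below -1 with Runx1 WT over Runx1 DN, and all Satb1 points are open.

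Per kilobase, Id RNA exceeded E protein RNA in both Runx1 WT libraries and in none of the other 6, while without division by length E protein RNA was the larger in every group (a ratio of 2.55 with Runx1 WT and 9.88 in mock). Summed per kilobase, the 3 E protein genes read 164 and 162 CPM per kilobase in mock, 190 and 183 with Runx1 WT, 143 and 133 with Runx1 DN, and 162 and 164 with Satb1. The 3 Id genes together read 47.3 and 57.0 in mock, 204 and 236 with Runx1 WT, 77.5 and 72.3 with Runx1 DN, and 52.8 and 65.2 with Satb1. The E protein to Id ratio in RNA was therefore 3.48 and 2.84 in mock, 0.933 and 0.776 with Runx1 WT, 1.85 and 1.84 with Runx1 DN, and 3.06 and 2.52 with Satb1. Both Runx1 WT libraries were under 1, both Runx1 DN libraries lay between these and the rest, and mock and Satb1 overlapped. These ratios are descriptions without a test, they compare RNA and not protein, and they depend on the transcript lengths in the table.

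**Figure D3:**
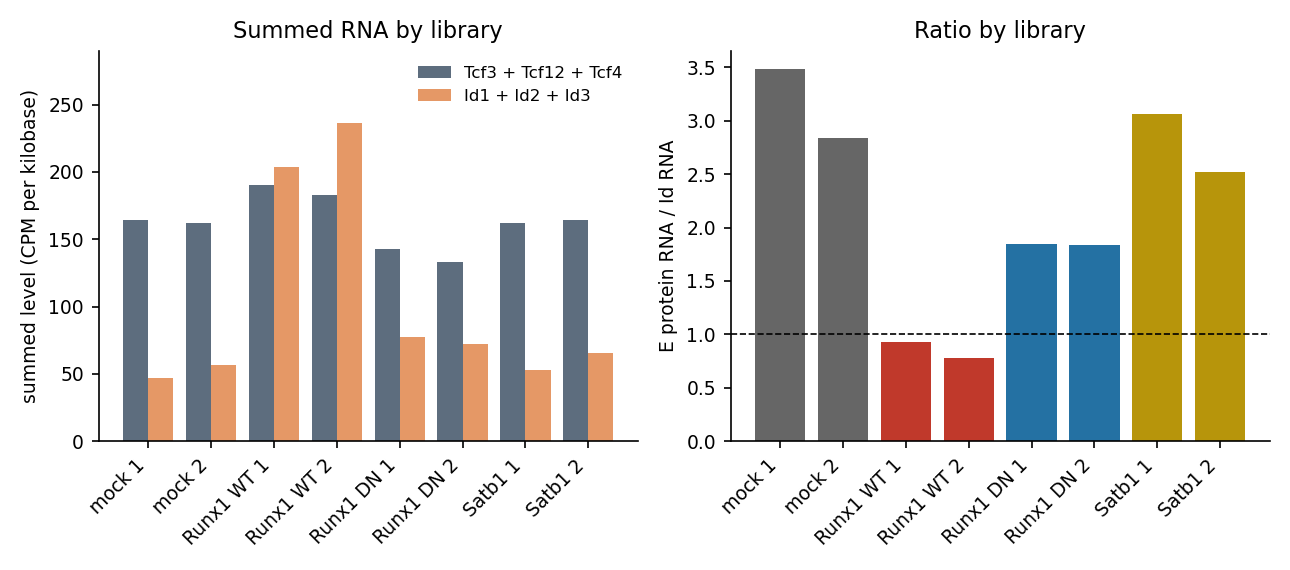
Left, summed level of the 3 E protein genes and of the 3 Id genes (CPM per kilobase, bars from 0) in each of 8 libraries. Right, the ratio of these sums in each library, with a dashed line at 1. The ratio is 0.933 and 0.776 in the Runx1 WT libraries, 1.85 and 1.84 in the Runx1 DN libraries, and between 2.52 and 3.48 in the mock and Satb1 libraries.

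Within the families the makeup moved as well. Id2 made up 93.1% of Id RNA per kilobase in both mock libraries, 98.5% and 99.0% with Runx1 WT, 87.0% and 88.3% with Runx1 DN, and 95.7% and 93.0% with Satb1. Id3 made up 4.98% and 5.32% in mock, 1.02% and 0.83% with Runx1 WT, and 9.79% and 8.14% with Runx1 DN. Id2 was thus the main Id transcript in every library. Tcf3 exceeded Tcf12 per kilobase in every library, by 1.35 and 1.28 times in mock, 2.13 and 1.75 with Runx1 WT, 1.95 and 1.55 with Runx1 DN, and 1.55 and 1.52 with Satb1. The Runx1 groups had similar Tcf3 to Tcf12 ratios although Tcf3 was called higher in Runx1 WT and Tcf12 called lower in Runx1 DN.

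The genes most like each member were ranked by the root mean square difference of mean-centred log2 CPM over the 8 libraries. For Id2 these were Gnb5, a G protein beta subunit gene (difference 0.0906), and the cation exchanger gene Slc8b1 (0.108). Their log2 fold changes were 2.10 and 1.94 with Runx1 WT and 0.36 and 0.29 with Runx1 DN. For Tcf3 they were Arpc1a, a subunit of the actin-nucleating complex (0.0367), and Fam134a (0.0419), and for Tcf12 the sphingolipid enzyme gene Kdsr (0.0378) and Zfp984 (0.05). For Id3, with values in the same order for Runx1 WT and Runx1 DN (-0.08 and 1.48, then -0.43 and 1.28), they were Padi4, a peptidylarginine deiminase gene (0.274), and the iron regulator Hfe (0.279), and for Id1 Camsap3 (0.301) and Rhox6 (0.319). The larger differences for Id1 and Id3 go with their low counts.

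Other helix-loop-helix partners and members of their complexes were mostly silent. Of 13 listed, 4 were tested, with 1 higher and 0 lower with Runx1 WT, 2 and 1 with Runx1 DN, and 1 and 0 with Satb1 (medians 0.28, 1.05 and 0.36), where 70.7%, 34.5% and 6.36% of all genes were called. The count with Runx1 WT was 3 without mock replicate 2 and 4 without Runx1 WT replicate 2. Id4 had no count in any library, and neither did Lmo1, Msc, Twist1 and Twist2, while Tal1 and Lmo2, partners in T cell leukaemia, had at most 2 counts in a library. Ldb1, the adaptor of LIM-domain complexes, was abundant in mock (289 and 288 CPM) and was not called in any comparison with mock. The LIM-only gene Lmo4 read 103 and 110 CPM in mock. It rose with Runx1 WT (0.37 ± 0.10, adjusted p = 0.00717) and with Satb1 (0.63 ± 0.10, adjusted p = 0.004), and fell with Runx1 DN by 0.31 ± 0.10 (adjusted p = 0.0403). The calls of Lmo4 were lost without mock replicate 1 for Runx1 WT (adjusted p = 0.0529), without either mock library, Runx1 DN replicate 2 or Satb1 replicate 1 for Runx1 DN (0.0503 to 0.248), and without the mock and Satb1 libraries numbered 2 for Satb1 (0.0608). The Runx1 DN call of Lmo4 was also lost with library size alone (0.111), with quantile normalization (0.0927) and with only the 2 groups fitted (0.0582). The haematopoietic factor Lyl1, an E protein partner, rose with Runx1 DN from 0.151 and 0.383 to 1.16 and 1.19 CPM (2.08 ± 0.44, adjusted p = 0.0046). Ascl2, another partner of E proteins, rose with Runx1 DN from 0.189 and 0.128 to 0.915 and 0.612 CPM (2.25 ± 0.49, adjusted p = 0.00553). That call was lost without mock replicate 2 or Runx1 DN replicate 1 and with DESeq2 (adjusted p = 0.0628). Ascl2 passed the filter on low counts only through Runx1 DN, so its rise was partly fixed by the filter. It also enters the count and the median given for Runx1 DN.

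Among cofactors and turnover factors, 10 of 11 were tested, with 5 higher and 2 lower with Runx1 WT, 3 and 3 with Runx1 DN, and 0 and 0 with Satb1, where DESeq2 also called 0. Against shares of 70.7%, 34.5% and 6.36% over all genes, the count with Runx1 WT is at the background. The counts with Runx1 DN were 1 and 2 when the libraries of mock and Satb1 numbered 2 were left out. The median log2 fold change was 0.25, 0.07 and 0.00, against 0.10, 0.00 and 0.00 over all genes. Usp1, a deubiquitinase reported to stabilise Id proteins, read 247 and 252 CPM in mock and 86.6 and 88.5 with Runx1 WT (-1.51 ± 0.07, adjusted p = 7.33e-08). Skp2, a ubiquitin ligase subunit reported to act on E2A, fell by 1.37 ± 0.08 with Runx1 WT (adjusted p = 2.73e-07) and by 0.45 ± 0.08 with Runx1 DN (adjusted p = 0.00188). Asb2, a ubiquitin ligase subunit reported to act on E2A downstream of Notch, rose with Runx1 WT from 1.25 and 0.894 to 14.2 and 21.8 CPM (4.08 ± 0.30, adjusted p = 9.7e-07). The acetyltransferase gene Kat2b rose by 0.67 ± 0.07 with Runx1 WT (adjusted p = 7.52e-06). The smaller changes of Usp1 (-0.24 ± 0.07, adjusted p = 0.0254) and Kat2b (0.23 ± 0.07, adjusted p = 0.0225) with Runx1 DN were lost without either mock library or Runx1 DN replicate 1, and that of Kat2b also without Runx1 DN replicate 2, with adjusted p from 0.0501 to 0.181. Without the libraries of mock and Satb1 numbered 2, these calls stood at 0.151 for Usp1 and 0.218 for Kat2b. That of Usp1 was also lost with library size alone (0.117) and quantile normalization (0.132), and that of Kat2b with DESeq2 (0.0672).

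Genes reported to depend on E proteins in developing lymphocytes did not move as a block. Of 23 listed 20 were tested, with 10 higher and 7 lower with Runx1 WT, 7 higher and 6 lower with Runx1 DN, and 6 higher and 1 lower with Satb1. The shares called over all genes were 70.7%, 34.5% and 6.36%, so the count with Runx1 WT is near the background. Without the mock and Satb1 libraries numbered 2 these counts were 9 and 7, 6 and 6, and 4 and 1, and without either Runx1 DN library 2 were lower with Satb1. The median log2 fold change was 0.61 with Runx1 WT, 0.10 with Runx1 DN and 0.01 with Satb1. Cd4, Gfi1b and Vpreb1, which are among the 10 higher with Runx1 WT, passed the filter on low counts only through Runx1 WT. Their rise was thus partly fixed by the filter, and they also enter the median. Rag1, which encodes a subunit of the recombinase of antigen receptor genes, read 489 and 396 CPM in mock, 121 and 108 with Runx1 WT, 31.9 and 31.1 with Runx1 DN, and 941 and 827 with Satb1. It was thus low in both Runx1 groups and high with Satb1, beyond the spread of the libraries in each case (adjusted p = 2.21e-07, 2.12e-08 and 0.000397).

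Ptcra, encoding the pre-TCR alpha chain, fell with Runx1 WT (-1.96 ± 0.11, adjusted p = 1.66e-07) and rose with Runx1 DN (0.56 ± 0.10, adjusted p = 0.00186) and with Satb1 (0.59 ± 0.10, adjusted p = 0.00565). The Satb1 call on Ptcra was lost without the mock and Satb1 libraries numbered 2 (adjusted p = 0.167). Cd3g, a chain of the CD3 complex, rose with Runx1 WT from 148 and 160 to 504 and 529 CPM (1.75 ± 0.07, adjusted p = 3.76e-08) and stood at -0.01 ± 0.07 with Runx1 DN. With Satb1 it rose by 0.32 ± 0.07 (adjusted p = 0.027), a call lost when any mock or Satb1 library was left out (0.0516 to 0.221). Il7r, the interleukin 7 receptor, fell by 3.84 ± 0.17 with Runx1 DN (adjusted p = 1.62e-07) and by 2.31 ± 0.15 with Satb1 (adjusted p = 1.58e-05).

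**Figure D4:**
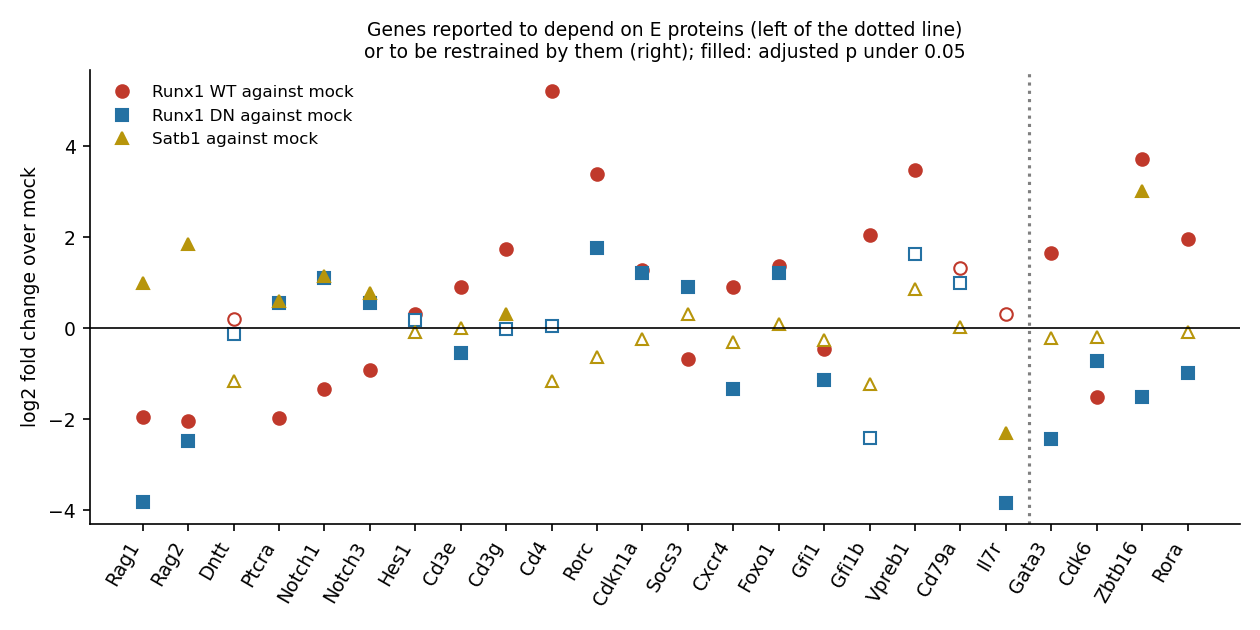
Log2 fold change over mock (vertical axis) of the 20 tested genes reported to depend on E proteins and, right of the dotted line, of the 4 reported to be restrained by them, for the 3 constructs. Filled symbols have an adjusted p under 0.05 in edgeR. Rag1 and Rag2 lie below 0 in both Runx1 groups and above 0 with Satb1, while Gata3, Zbtb16 and Rora lie above 0 with Runx1 WT and below 0 with Runx1 DN.

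All 4 genes reported to be restrained by E proteins were tested. With Runx1 WT 3 rose and 1 fell, and with Runx1 DN all 4 fell (medians 1.81 and -1.24). Over all genes, 38.9% were higher and 31.8% lower with Runx1 WT, and 16.9% were lower with Runx1 DN. With Satb1, 1 of the 4 rose. Without the mock and Satb1 libraries numbered 2, 3 fell with Runx1 DN. Gata3, a factor of T cells and innate lymphoid cells, read 186 and 232 CPM in mock, 657 and 655 with Runx1 WT and 41.4 and 35.9 with Runx1 DN. Rora, a nuclear receptor gene used by innate lymphoid cells, rose by 1.97 ± 0.13 with Runx1 WT (adjusted p = 4.89e-07) and fell by 0.98 ± 0.13 with Runx1 DN (adjusted p = 0.000285). Zbtb16, encoding the factor PLZF, rose with Runx1 WT (3.71 ± 0.24, adjusted p = 4.45e-07) and with Satb1 (3.01 ± 0.24, adjusted p = 5.84e-05). It fell with Runx1 DN by 1.51 ± 0.40 (adjusted p = 0.0155), a call lost without mock replicate 2 (0.0811) or either Runx1 DN library (0.0757 and 0.0679). Cdk6, a kinase that drives entry into the cell cycle, fell by 1.51 ± 0.09 with Runx1 WT and by 0.73 ± 0.09 with Runx1 DN (adjusted p = 3e-07 and 0.000183).

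Genes that are known to feed into Id gene expression included 11 tested of 17 listed, with 6 higher and 3 lower with Runx1 WT, 2 and 4 with Runx1 DN, and 0 and 2 with Satb1 (all genes: 70.7%, 34.5% and 6.36% called). Their medians were 0.33, -0.04 and 0.09. Without the mock and Satb1 libraries numbered 2 these counts were 4 and 1, 1 and 3, and 0 and 2. With Runx1 WT, 1 was lower without mock replicate 2 and 0 without Runx1 WT replicate 1. With Runx1 DN, 1 was higher without any single mock or Satb1 library, and 0 were higher without either Runx1 DN library or with DESeq2. Egr1, an immediate early factor reported to induce Id3, read 2.16 and 1.98 CPM in mock and 16.9 and 19.4 with Runx1 WT (3.14 ± 0.19, adjusted p = 2.83e-07), where Id3 was not called. With Runx1 DN, where Id3 rose, Egr1 stood at 0.44 ± 0.22 (adjusted p = 0.142). Egr2, called higher in both Runx1 groups, passed the filter on low counts only through Runx1 DN, so its rise there was partly fixed by the filter. The part of Egr1, or of any other gene of this list, in the Id results was not tested. Tbx21, encoding T-bet, rose with Runx1 WT from 15.7 and 19.8 to 232 and 221 CPM (3.68 ± 0.13, adjusted p = 1.75e-08), in the libraries in which Id2 was highest, and fell with Satb1 by 0.91 ± 0.14 (adjusted p = 0.00337). Stat5b, a transducer of cytokine signals, rose by 0.66 ± 0.08 with Runx1 WT (adjusted p = 3.27e-05). With Runx1 DN it fell by 0.32 ± 0.08 (adjusted p = 0.0123), a call lost without mock replicate 2 (0.126) or Runx1 DN replicate 1 (0.0868). Acvr1, a receptor of the bone morphogenetic protein pathway, which is known to induce Id genes, fell by 4.12 ± 0.29 with Runx1 DN (adjusted p = 3.83e-06), the group with the highest Id1 and Id3, and by 1.62 ± 0.21 with Satb1 (adjusted p = 0.00133). Its change with Runx1 WT (-0.64 ± 0.20, adjusted p = 0.0161) was lost without mock replicate 2 (-0.42, adjusted p = 0.155) or Runx1 WT replicate 1 (0.103).

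Of 6 RNA quality transcripts listed, 3 were called higher and 1 lower with Runx1 WT (median 0.62), 4 and 0 with Runx1 DN (median 0.84), and 0 and 1 with Satb1 (median -0.05). Over all genes 70.7%, 34.5% and 6.36% were called in these comparisons. Of the glycolysis and hypoxia genes, 13 of 13 were lower with Runx1 WT and 10 of 13 with Runx1 DN. The part of either list in the Id and E protein results was not tested.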

How the data were processed

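Expression was measured by RNA-seq in 8 libraries. Exon reads were counted by the authors with HOMER on mm9, unadjusted and merged by gene, per the file headers, so the deposited values are whole-number counts. Counts did not use strand. The authors' deposited table also holds log2 fold changes, p-values and adjusted p-values from edgeR, and a transcript length per gene, per the file headers. The submitters' processing notes list edgeR 3.6.8, HOMER, RSEM 1.2.25, STAR 2.4.0 and Trimmomatic 033.

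Genes passing filterByExpr (minimum count 10, minimum total 15; 12699 genes) were fitted with edgeR 4.0.16 (TMM, quasi-likelihood test, R 4.3.3) to all 8 libraries by group, leaving 4 residual degrees of freedom. All tests are two-sided, and p-values were adjusted over all genes tested (Benjamini-Hochberg, threshold 0.05). The SE is the fold change divided by the root of the F statistic. Intervals of fold changes are at the 95% level, come from the same fit and include the variation between libraries. The floor for a count of 0 is 3 counts per library and covers counting error only. DESeq2 1.42.0 and limma-voom (limma 3.58.1) were among 19 alternative settings, which also changed the scaling, the filter, the samples fitted and the block. Those on list counts and pathway genes were added after the data were seen. The fit was tested on simulated data.

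The members, the pathway and marker lists and the alternatives were chosen with earlier results of these data known. Named pathway genes are the 4 with the smallest adjusted p against mock in each list, and the like genes are the 2 nearest to each member. Genes outside this rule (the cell type markers, Rag2, Cd4, Gfi1b, Vpreb1, Egr2 and the silent partners) were named after their values were seen.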

Additional observations from a re-analysis of the deposited data

How the results depend on the processing

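Over 570 recomputed member values, 529 kept their direction and side of the threshold, 14 lost and 14 gained a call, and 13 changed sign, none of them called in the full data. The sign changes, with the range over 1 library left out at a time, were in 6 comparisons of a member. Id1 with Runx1 WT over mock ranged from -1.237 to 0.015. Tcf3 with Runx1 DN over mock ranged from -0.193 to 0.027, with 0.002 for library size alone and 0.034 for quantile normalization. With Satb1 over mock, Id1 ranged from -0.373 to 0.547, with -0.346 without the mock and Satb1 libraries numbered 2, and Id3 from -0.792 to 0.266. With Runx1 WT over Satb1, Tcf12 ranged from -0.084 to 0.05, with 0.103 for library size alone and 0.064 for quantile normalization, and Id3 from -0.694 to 0.365, with 0.364 without the libraries numbered 2. The cause was not tested. The count of members called went from 2 to 4 with quantile normalization in limma-voom (Runx1 WT over mock and over Satb1), and from 2 to 1 without the libraries numbered 2 (Runx1 WT over Satb1). With 1 library left out it was 2 to 4 for Runx1 DN over mock, where 4 were called in full. Without the libraries numbered 2, fewer genes were called in all with Runx1 DN over mock (2715 against 4375) and Satb1 over mock (314 against 808). Runx1 DN over Satb1 also had fewer (3022 against 4825). That fit had fewer samples and lacked the libraries high in hypoxia genes, and the part of either in these counts was not tested. With 1 library left out, 2908 to 4675 genes were called for Runx1 DN over mock and 430 to 839 for Satb1 over mock.

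The median of all genes with Runx1 WT over mock was 0.10, but 0.22 with library size alone and -0.11 with quantile normalization, and the called genes split 4943 higher and 4032 lower, against 4043 and 4947 with quantile normalization. For Runx1 DN over mock they split 2227 and 2148, against 2901 and 1515 with library size alone. Relative to that median, Tcf12 with Runx1 WT stood at -0.24 with TMM and with library size alone and at 0.05 with quantile normalization, while Id2 stood at 2.06, 2.07 and 2.29 and Tcf3 at 0.31, 0.31 and 0.71. With the replicate number as a block, Satb1 over mock had 1265 calls, Tcf12 with Runx1 WT over mock (adjusted p = 0.0467) and Id2 with Runx1 DN over Satb1 (0.25, adjusted p = 0.04) were gained, and no other member call changed. Replicate deviations correlated at 0.39 between mock and Satb1 and at 0.07 to 0.19 between other groups, so the numbers are not taken as a pairing. Without division by length, the E protein to Id ratio was 9.88 in mock, 2.55 with Runx1 WT, 5.7 with Runx1 DN and 8.58 with Satb1. The call of Tcf12 with Runx1 DN over Satb1 was lost without the libraries numbered 2 (-0.34, adjusted p = 0.0511). Depth limits Id1, with 10 to 67 counts per library, and Tcf4 cannot be compared.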
